A study of Mus musculus with 4 samples.

Results

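The constitutive proteasome genes were examined in monocytes that had been sorted by flow cytometry from mouse bone marrow and sequenced as bulk messenger RNA. The 45 members are the rows, of 31017 gene symbols in each count table, whose symbol is Psma, Psmb, Psmc, Psmd, Psme, Psmf or Psmg followed by a number alone, without the immunoproteasome genes Psmb8, Psmb9 and Psmb10. They comprise 16 genes of the core particle, 17 of the regulatory particle and 12 for activators, an inhibitor and assembly chaperones. The regulatory particle subunits Adrm1 and Sem1 have other symbols and are counted as cofactors below. The aged group holds 2 libraries from mice of 18 months and the young group 2 libraries from mice of 3 months. All mice were wild-type C57BL/6, and the labels give atherosclerosis as the disease tag of every library in both groups. Whether replicate libraries stem from different mice is not in the labels. The p-values therefore reflect library-to-library spread alone, and that spread may be technical. By its title, the series asks whether marrow age bears on the clonality of plaque cells derived from smooth muscle.

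The proteasome is the barrel-shaped protease that degrades proteins tagged with ubiquitin. Its core particle is a stack of outer rings of alpha subunits, which gate the channel, and inner rings of beta subunits, of which Psmb5, Psmb6 and Psmb7 encode the active proteases. The regulatory particle caps the core. Its base holds a ring of ATPases (Psmc genes) that unfold the substrate, and its lid removes the ubiquitin chain. In immune cells, interferon can replace the active subunits by those of the immunoproteasome. The transcription factor encoded by Nfe2l1 raises proteasome genes together when proteasome activity falls short, by binding antioxidant response elements in their promoters.

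The short stretches around the core letters of that element are shown because they mark which member promoters carry them. RefSeq promoter windows (GRCm38.p6) were matched by symbol for 37 of the 45 members, and the 250 bases before each start were searched on both strands for TGACNNNGC. The letters were present in 2 of 12 core genes, 2 of 14 regulatory particle genes and 1 of 11 other members, against 11.5% of 27025 genes with a promoter window. Capitals mark the match, written on the gene's strand, 5′ to 3′. In Psmc6 and Psmd12 it is the reverse complement.
Psmb5, chr14:54618009-54618067, minus strand: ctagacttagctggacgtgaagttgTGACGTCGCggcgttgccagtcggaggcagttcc
Psmb6, chr11:70525323-70525356, plus strand: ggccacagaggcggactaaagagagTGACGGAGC
Psmc6, chr14:45329574-45329630, plus strand: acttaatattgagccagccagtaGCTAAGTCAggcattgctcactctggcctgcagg
Psmd12, chr11:107479278-107479314, plus strand: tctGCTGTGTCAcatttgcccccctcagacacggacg
Psmd9, chr5:123228134-123228189, plus strand: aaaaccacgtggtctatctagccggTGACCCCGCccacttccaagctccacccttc
The matches start 47 bases before the start of Psmb5, 9 before Psmb6, 31 before Psmd9, 227 before Psmc6 and 247 before Psmd12. The CCAAT box, searched as CCAAT on both strands, was present in 7 of 12 core genes, 4 of 14 regulatory particle genes and 2 of 11 other members, against 37.5% of all genes. None of the 5 promoters with the TGACNNNGC letters also held CCAAT in its window. A match describes letters only, and no binding was measured.

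The 4 libraries held 20159129 to 34278754 counts, young replicate 1 being the deepest, and 12035 genes were tested. Markers passed, and were said to rise or fall, at an edgeR adjusted p under 0.05. Of all genes tested, 2.87% rose and 2.89% fell in aged libraries by this rule. Among the marker lists, 3 of 10 monocyte genes rose and 2 fell. The monocyte list summed to 43155 to 43696 CPM (counts divided by the TMM-scaled library total) in aged and 41589 to 43725 CPM in young libraries. Of 7 tested B-lineage markers 4 rose (911 to 914 against 659 to 669.9 CPM, aged against young). Of 8 neutrophil markers 2 rose and 2 fell (14237 to 14458 against 11756 to 11925 CPM). Of 7 genes each, 2 dendritic (256 to 261 against 222 to 227 CPM) and 3 macrophage markers rose (509.7 to 533 against 506 to 529 CPM). Of 7 genes each, 1 erythroid (307 to 318 against 283 to 309 CPM) and 0 T and NK markers rose (40.8 to 42.2 against 45.7 to 51.9 CPM). At an unadjusted edgeR p under 0.05, 1 macrophage marker and 1 T or NK marker were lower, against 11% of all genes tested. All 11 genes of sample handling and stress rose (4246 to 4370.2 against 2279.9 to 2286 CPM), and 0 of 10 genes of dividing cells passed (1347 to 1418 against 1516 to 1532 CPM; 5 lower at an unadjusted edgeR p under 0.05). No listed marker was at 0 in any library. The part of these other cells and of handling in the results below was not tested, and in bulk RNA fewer cells of a type and less RNA per cell cannot be told apart.

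The summed level of the proteasome genes overlapped between the ages, while core genes were lower and regulatory particle genes higher in both aged libraries. The 45 members summed to 5488 and 5499.7 CPM in the aged libraries, against 5434 and 5513 CPM in the young ones, or 0.545% to 0.553% of all counts. The groups overlapped in this sum. Core particle genes summed to 2321 and 2314 CPM in aged libraries, against 2437 and 2421 CPM in young ones, and both aged libraries lay below both young ones. Regulatory particle genes summed to 2322 and 2358 CPM in aged libraries, against 2168 and 2256 CPM in young ones, with both aged libraries above. The other 12 members gave 845 and 827 CPM in aged and 829 and 836 CPM in young libraries, without separation.

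The ratio of core to regulatory particle counts, which does not depend on library scaling, was 0.999 and 0.981 in the aged libraries, against 1.124 and 1.073 in the young ones. Its mean was 0.990 ± 0.013 in aged and 1.10 ± 0.036 in young monocytes (SD, n = 2 each), a difference of -9.86%. Alpha ring genes over the regulatory particle gave 0.590 and 0.564 in aged libraries, against 0.658 and 0.634 in young ones. Beta ring genes over the regulatory particle gave 0.410 and 0.417 in aged libraries, against 0.466 and 0.439 in young ones. All 3 ratios were lower in aged libraries without overlap, and they share a denominator that was higher in aged libraries. Beta ring genes alone summed to 952 and 983 CPM in aged libraries, against 1010 and 990 CPM in young ones. The median log2 change, aged over young, was -0.11 for the alpha ring and -0.024 for the beta ring. The alpha over beta ring ratio overlapped between the ages, at 1.439 and 1.353 in aged and 1.413 and 1.445 in young libraries. Weighting each gene by its transcript length left the core to regulatory difference at -9.74%, and leaving out the most abundant member of each particle, Psma7 and Psmd2, at -9.74% on the count scale. These are descriptions of 4 libraries with no p-value, since the members of a complex are not replicates.

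**Figure D1:**
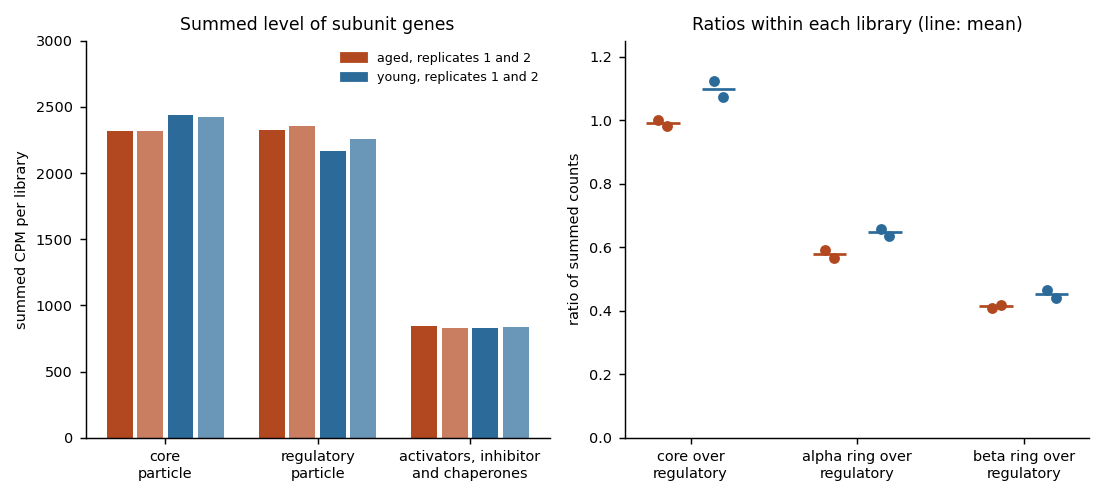
Left, summed CPM of the core particle, regulatory particle and remaining member genes in each library, aged bars left of young ones; right, ratios of summed counts per library, with a line at the mean of each group. Core bars are lower and regulatory particle bars higher in the aged libraries, and the core to regulatory ratio is 0.999 and 0.981 in aged against 1.124 and 1.073 in young libraries.

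Gene by gene the differences were small. Of the 45 members, 44 had enough counts to test, and 1 passed the threshold of 0.05 on the adjusted p of edgeR's quasi-likelihood test, against 5.77% of all genes tested. DESeq2 and limma-voom also called 1 member each, against 5.67% and 6.72% of all genes. No core member of 15 tested and no regulatory particle member of 17 passed with edgeR, DESeq2 or limma-voom. At an unadjusted edgeR p under 0.05, 10 of 44 members were found, against 21.1% of all genes: 1 in the core, 4 in the regulatory particle and 5 among the others. Of these, 6 were higher in aged libraries, against 10.1% of all genes, and 4 lower, against 11% of all genes. The log2 change (aged over young) was below 0 in 11 of 15 core members, against 50.7% of all genes, with a median of -0.083. It was above 0 in 14 of 17 regulatory particle members, against 49.3% of all genes, with a median of 0.11. The median over all genes was -0.0044. Aged libraries lay below young ones without overlap in 8 of 15 core members and above in 1 (25.7% and 25.9% of all genes). They lay above without overlap in 11 of 17 regulatory particle members and below in 2. Some gaps were narrow, as for Psmb5, at 129.1 CPM in aged replicate 2 and 129.2 CPM in young replicate 1. The 1 core member above was Psma8, which had 43 to 80 counts per library. In either direction, the groups did not overlap in 30 of 44 members, against 51.6% of all genes. These members share libraries and are not independent of each other. With offsets for GC content and exon length per library, the regulatory particle median was 0.057 and the core median -0.11. For the offsets, length was that of all annotated exons merged. Its median was 2370 bases for core genes and 2820 bases for regulatory particle genes. The median principal transcript length, not used in the offsets, was 1165 bases for core genes and 1904 bases for regulatory particle genes.

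**Figure D2:**
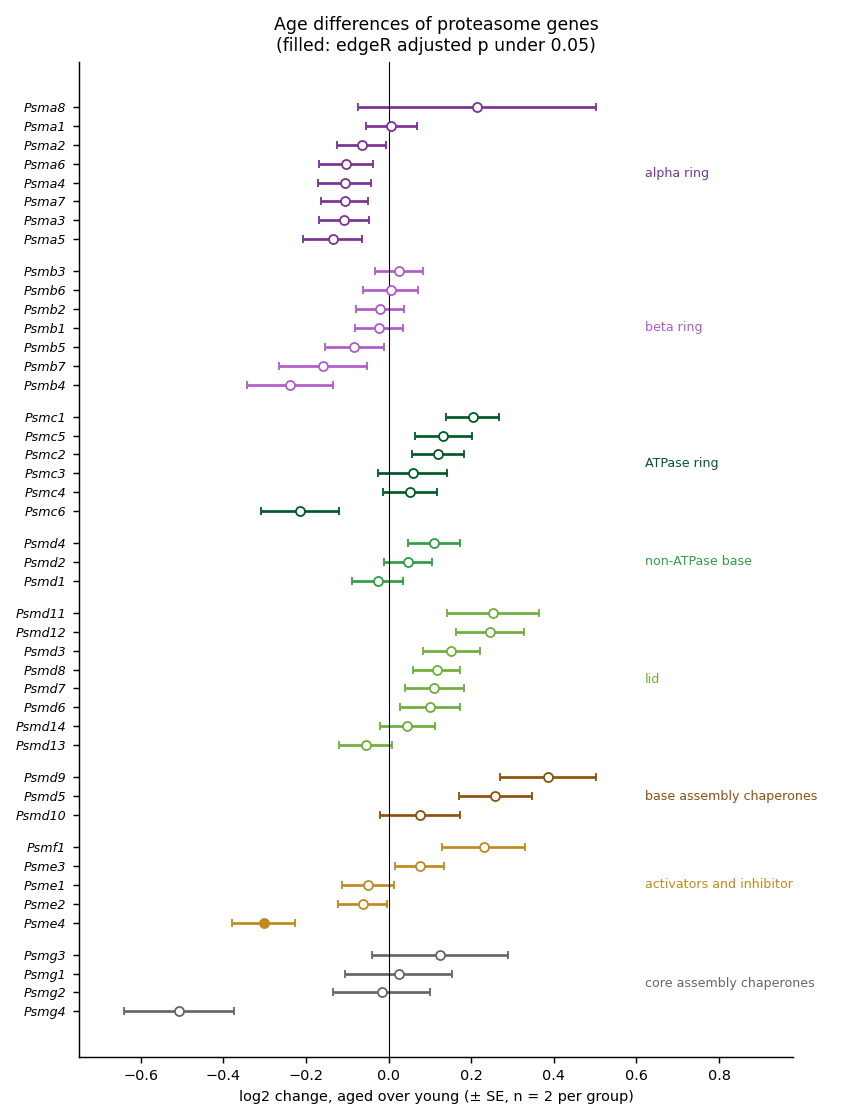
Log2 change of the 44 tested members, aged over young, with standard errors (n = 2 per group), grouped by role; a filled point passed an edgeR adjusted p of 0.05. The filled point is Psme4, most alpha ring points lie below 0 and most ATPase and lid points above it, and the axis spans less than 1 log2 unit either way.

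Of the 8 alpha ring genes, which encode the gate of the core, 6 had a log2 change below 0 and none passed. Psma7, the most abundant of them, stood at 352 and 357 CPM in aged libraries, against 369 and 394 CPM in young ones. Both aged libraries lay below both young ones, with a log2 change of -0.11 ± 0.057 (SE; adjusted p = 0.316). Psma5, with the smallest p of the ring, stood at 93.2 and 87.9 CPM in aged libraries, against 101.5 and 97.4 CPM in young ones (-0.14 ± 0.072, adjusted p = 0.311). Psma2, Psma3, Psma4 and Psma6 had log2 changes of -0.065 to -0.11 and also did not overlap between the ages. Psma1 was the exception among the ubiquitous alpha genes, at 250.3 and 232 CPM in aged libraries, against 239 and 241 CPM in young ones, with overlapping groups. Transcripts at least 95% identical over 200 bases or more are annotated for Psma3, Psma4 and Psma5, so their counts are uncertain where reads could be split.

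Psma8 encodes the alpha subunit that takes the place of Psma7 in germ cells of the testis. It had 66 and 56 counts in aged libraries, against 80 and 43 in young ones, or 2.63 and 2.58 CPM against 2.31 and 2.16 CPM. Per length it was far below all other core members with counts. Its log2 change was 0.21 ± 0.29 (adjusted p = 0.714).

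None of the 3 active proteases of the beta ring passed. Psmb5, the chymotrypsin-like subunit, stood at 116 and 129.1 CPM in aged libraries, against 129.2 and 131 CPM in young ones (-0.083 ± 0.071, adjusted p = 0.55; chromosome 14, 54614119 to 54618022). Aged replicate 1 was low and aged replicate 2 was next to the young libraries, and the log2 change of Psmb5 was -0.16 to -0.0098 with each library left out, nearest to 0 without aged replicate 1. Psmb6, the caspase-like subunit, stood at 138 and 139 CPM in aged libraries, against 133 and 143 CPM in young ones (0.0048 ± 0.066, adjusted p = 0.976; chromosome 11, 70525367 to 70527858). Psmb7, the trypsin-like subunit, stood at 39.5 and 47.2 CPM in aged libraries, against 51.0 and 45.6 CPM in young ones (-0.16 ± 0.11, adjusted p = 0.431; chromosome 2, 38588036 to 38644087). Its groups overlapped, and its log2 change was -0.30 to -0.036 with each library left out, again nearest to 0 without aged replicate 1. Psmb7 shares 405 bases of exon with Nek6 on the opposite strand, and the strand setting of the counting is not given in the sources used here.

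Psmb1, Psmb2, Psmb3 and Psmb4 encode beta subunits without protease activity. Psmb3, the highest of the ring per length, stood at 187 and 182 CPM in aged libraries, against 183 and 179 CPM in young ones (0.025 ± 0.059, adjusted p = 0.852). Psmb1 (-0.024 ± 0.058) and Psmb2 (-0.021 ± 0.059) also had log2 changes smaller than their standard errors. Psmb4 had the smallest p of the core, at 92.5 and 112 CPM in aged libraries, against 131 and 109.8 CPM in young ones (-0.24 ± 0.10, adjusted p = 0.224). Its groups overlapped, since aged replicate 2 lay above young replicate 2. With each library left out in turn, its log2 change was between -0.38 and -0.10. Psmb11, the active subunit that takes the place of Psmb5 in cortical cells of the thymus, had 0 counts in all 4 libraries, which allows up to 0.120 and 0.137 CPM in aged and 0.0875 and 0.149 CPM in young libraries. These limits cover counting error only.

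**Figure D3:**
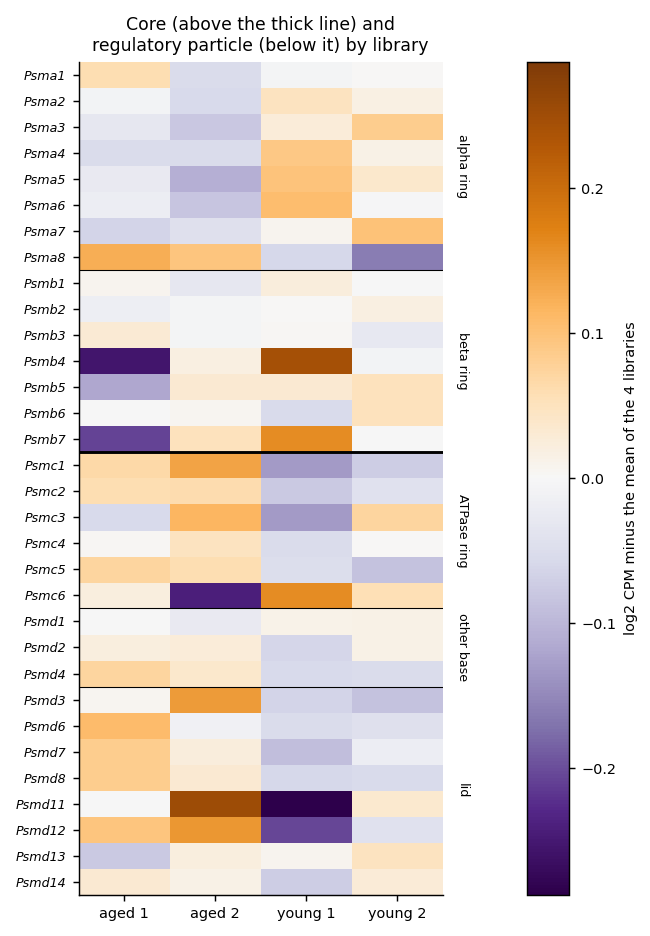
Log2 CPM of each tested core and regulatory particle gene in each library, minus the mean of that gene over the 4 libraries, with aged columns left of young ones. Alpha ring rows are mostly below their mean in aged columns and ATPase and lid rows mostly above it, while Psmb4, Psmb7, Psmc6 and Psmd11 hold the darkest cells, with libraries of the same age apart.

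In the base of the regulatory particle, 5 of the 6 ATPase genes had values above 0. Psmc1 had the smallest p of them, at 145 and 152 CPM in aged libraries, against 126 and 131 CPM in young ones. Both aged libraries were above both young ones (log2 change 0.20 ± 0.065, adjusted p = 0.102), and the gene lies on chromosome 12 at 100110154 to 100123405. Psmc2 (0.12 ± 0.064), Psmc5 (0.13 ± 0.069) and Psmc4 (0.052 ± 0.066) also did not overlap. Psmc3, the most abundant ATPase gene per length, stood at 150.1 and 169 CPM in aged libraries, against 143 and 164 CPM in young ones (0.058 ± 0.084, adjusted p = 0.736). Psmc6 went against the other ATPase genes, at 81.0 and 67.5 CPM in aged libraries, against 89.2 and 83.0 CPM in young ones (-0.21 ± 0.094, adjusted p = 0.226). With each library left out, its log2 change was between -0.35 and -0.092 (adjusted p = 0.0214 to 0.648). It passed, as lower, without aged replicate 1, and was nearest to 0 without aged replicate 2. Like Psmb3, Psmb5, Psmb6, Psmd1, Psmd2, Psmd11 and Psmg3, Psmc1 has an annotated near-identical copy, and Psmc3 shares 215 bases with Slc39a13 on the opposite strand.

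The other base subunits hold the ATPase ring to its substrates. Psmd4, a ubiquitin receptor, stood at 132 and 129 CPM in aged libraries, against 121 and 121 CPM in young ones (0.11 ± 0.064, adjusted p = 0.358). Psmd2, a scaffold and the most abundant regulatory particle member, stood at 293 and 294 CPM in aged libraries, against 276 and 291 CPM in young ones (0.047 ± 0.057, adjusted p = 0.681). Psmd1, the other large scaffold, stood at 139.5 and 137 CPM in aged libraries, against 140.9 and 141 CPM in young ones (-0.027 ± 0.062, adjusted p = 0.849).

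Of the 8 lid members, which encode the cover of the regulatory particle, 7 had a log2 change above 0 and none passed. Psmd12, a structural subunit of the lid, stood at 78.2 and 81.3 CPM in aged libraries, against 63.6 and 71.2 CPM in young ones (0.25 ± 0.082, adjusted p = 0.114; chromosome 11, 107479484 to 107504362). Psmd11, whose product helps stabilise the assembled particle, stood at 109 and 129.6 CPM in aged libraries, against 89.2 and 111.5 CPM in young ones (0.25 ± 0.11, adjusted p = 0.229). Its groups overlapped, and with each library left out its log2 change ranged widely, between 0.097 and 0.42 (adjusted p = 0.0157 to 0.775). It passed without aged replicate 1 and was lowest without young replicate 1. Psmd14, the deubiquitinase of the lid, stood at 131 and 129.5 CPM in aged libraries, against 122 and 131 CPM in young ones (0.046 ± 0.067, adjusted p = 0.743). Psmd3, Psmd6, Psmd7 and Psmd8 had log2 changes of 0.10 to 0.15, with aged libraries above young ones in each. Psmd13 was the 1 lid member below 0 (-0.055 ± 0.065) and shares 342 bases with Sirt3 on the opposite strand. The lid subunit Sem1, outside the symbol rule, was lower in both aged libraries than in both young ones. Its levels were 298.5 and 280 CPM in aged and 330 and 303.5 CPM in young libraries (-0.13 ± 0.064, edgeR adjusted p = 0.267).

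The chaperones that assemble the base had a median log2 change of 0.26, and none passed. Psmd9 stood at 21.6 and 24.0 CPM in aged libraries, against 18.0 and 16.7 CPM in young ones (0.39 ± 0.12, adjusted p = 0.0855; chromosome 5, 123169413 to 123250131). It passed in 3 of 13 alternatives, among them without aged replicate 1 (adjusted p = 0.0425). GENCODE's span of Psmd9 begins far upstream of the RefSeq start used for its promoter, and its exons share 1849 bases with Gm26745 on the opposite strand, which had 0 counts in every library. Psmd5 stood at 93.2 and 89.3 CPM in aged libraries, against 70.2 and 82.8 CPM in young ones (0.26 ± 0.089, adjusted p = 0.125). Psmd10, also known as gankyrin, stood at 32.7 and 30.7 CPM in aged libraries, against 30.6 and 29.5 CPM in young ones (0.076 ± 0.097, adjusted p = 0.698). In all 3 genes the aged libraries lay above the young ones, as in 25.9% of all genes tested. For Psmd10 the gap was narrow, with 30.7 CPM in aged replicate 2 against 30.6 CPM in young replicate 1.

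The chaperones that assemble the core are the Psmg genes, whose products pair up to build the alpha ring. Psmg4 stood at 11.1 and 11.3 CPM in aged libraries, against 15.1 and 16.7 CPM in young ones, with no overlap. Its log2 change of -0.51 ± 0.13 was the largest in size among the 44 tested members, and it missed the threshold (adjusted p = 0.0531; chromosome 13, 34162964 to 34178173). It passed in 3 of 13 alternatives, and with each library left out its adjusted p was 0.0673 to 0.234. Psmg3, its partner, stood at 11.4 and 9.20 CPM in aged libraries, against 9.08 and 9.88 CPM in young ones (0.12 ± 0.16). Psmg1 (0.025 ± 0.13) and Psmg2 (-0.017 ± 0.12), which form the other pair, overlapped between the ages.

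Psme4 was the member that passed, and it fell. It encodes a nuclear activator that caps the core in place of the regulatory particle. Psme4 stood at 69.3 and 69.9 CPM in aged libraries, against 82.4 and 89.5 CPM in young ones. Mean levels were 69.6 ± 0.418 CPM for the aged pair and 85.9 ± 5.05 CPM for the young pair (SD, n = 2 each), and the log2 change was -0.30 ± 0.077 (edgeR adjusted p = 0.047). The gene lies on the plus strand of chromosome 11, at 30771726 to 30880361. The call was narrow: it was lost with each library left out (adjusted p = 0.0587 to 0.258), with library size alone (0.0514) and with the GC and length offsets (0.098). The log2 change stayed between -0.36 and -0.24 over the libraries left out.

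The other activators did not pass. Psme1 and Psme2, the interferon-inducible activator pair, had log2 changes of -0.049 ± 0.062 and -0.063 ± 0.060. Psme2 stood at 183 and 177 CPM in aged libraries, against 191 and 185 CPM in young ones (adjusted p = 0.596), and its near-identical copy Psme2b had 174 to 297 counts per library. Psme3, the nuclear homologue, stood at 201 and 195 CPM in aged libraries, against 185 and 191 CPM in young ones (0.076 ± 0.059, adjusted p = 0.511). Psmf1, a core inhibitor in the test tube, stood at 36.1 and 33.0 CPM in aged libraries, against 30.5 and 28.3 CPM in young ones (0.23 ± 0.10, adjusted p = 0.221).

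**Figure D4:**
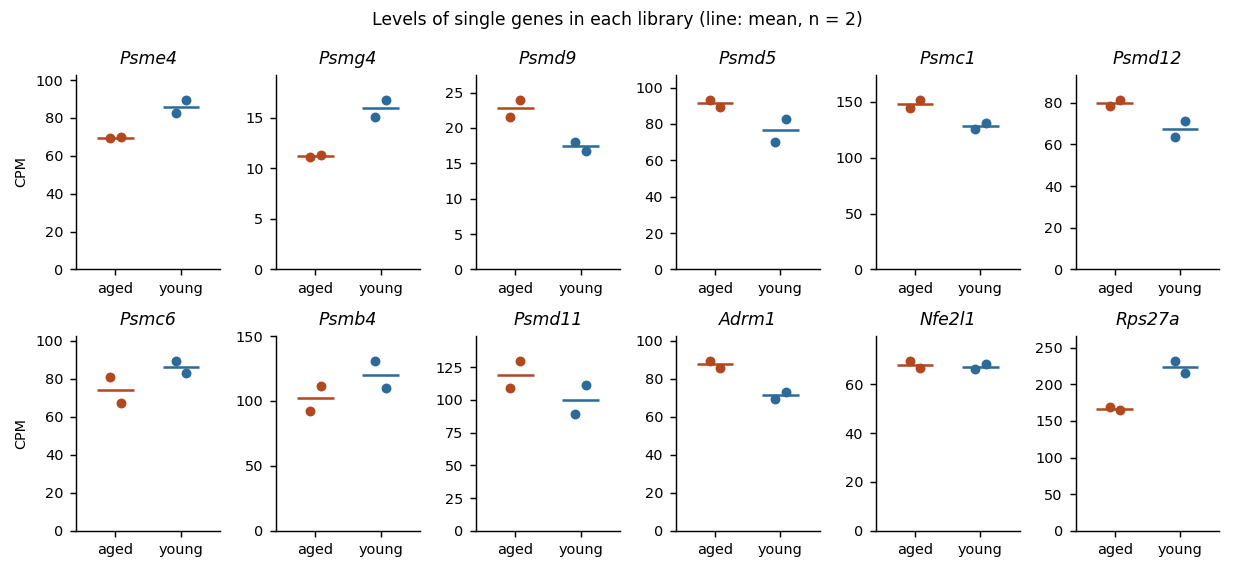
CPM in each library for 9 members and for Adrm1, Nfe2l1 and Rps27a, aged left of young, with a line at the mean of each group; each axis starts at 0. Psme4, Psmg4 and Rps27a are lower and Psmd9 and Adrm1 higher in both aged libraries, while Psmd11 and Nfe2l1 overlap.

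Immunoproteasome genes were set beside the subunits they replace. Psmb8, Psmb9 and Psmb10 gave log2 changes of 0.11 ± 0.066, 0.046 ± 0.068 and -0.056 ± 0.063, and edgeR, like DESeq2 and limma-voom, called none of them; 0 had an unadjusted edgeR p under 0.05. Psmb8 stood at 163 and 155 CPM in aged libraries, against 152 and 143 CPM in young ones. The count ratio of Psmb8 to Psmb5 was 1.404 and 1.198 in aged libraries, against 1.180 and 1.090 in young ones, without overlap but with a narrow gap. The ratios of Psmb9 to Psmb6 (0.799 and 0.841 in aged, 0.828 and 0.766 in young libraries) and of Psmb10 to Psmb7 (3.60 and 3.00 in aged, 2.96 and 3.15 in young libraries) overlapped.

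Of 15 cofactors of the proteasome found in the tables, 1 rose and 0 fell, against 2.87% and 2.89% of all genes. The list's median log2 change was 0.016. The gene that rose was Adrm1, the ubiquitin receptor at the tip of the regulatory particle that also docks a deubiquitinase. It stood at 89.1 and 85.8 CPM in aged libraries, against 69.2 and 73.1 CPM in young ones (0.30 ± 0.074, adjusted p = 0.0438; chromosome 2, 180171485 to 180176286). Adrm1 lost its call with each library left out (adjusted p = 0.062 to 0.311) and with the GC and length offsets (0.0972). Nfe2l1 stood at 69.4 and 66.5 CPM in aged libraries, against 66.2 and 68.2 CPM in young ones (0.016 ± 0.076, adjusted p = 0.93; chromosome 11, 96817414 to 96829968), with overlapping groups. Of 8 target genes of the related factor Nfe2l2, 0 passed with edgeR, DESeq2 or limma-voom and 0 had an unadjusted p under 0.05. Their smallest p was that of Slc7a11 (0.21 ± 0.11, adjusted p = 0.313), and their median was 0.037.

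Of 14 genes that supply ubiquitin or carry its conjugates, 1 fell, against 2.89% of all genes, and the median log2 change was -0.055. The gene that fell was Rps27a, which encodes ubiquitin fused to a ribosomal protein. It stood at 169.6 and 164 CPM in aged libraries, against 232 and 216 CPM in young ones (-0.42 ± 0.062, adjusted p = 0.00365; chromosome 11, 29545846 to 29548109). It was lost without young replicate 1 (adjusted p = 0.0522).

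As a comparison with another large complex, 78 genes for cytosolic ribosomal proteins were tested. At an edgeR adjusted p under 0.05, 49 of the 78 fell and 0 rose, against 2.89% and 2.87% of all genes. The median log2 change of the 78 was -0.33. Their summed level was 11829 and 11767 CPM in aged libraries, against 15331 and 14034 CPM in young ones, while the sum of proteasome members overlapped. Rps27a belongs to this list as well.

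Levels of different subunits were compared per kilobase of the principal transcript, over the mean of the 4 libraries. The 9 highest of 32 tested core and regulatory particle members were all core genes, led by Psma7 at 403, Psmb3 at 239 and Psmb2 at 207 CPM per kb. Sem1, a lid subunit not among the 32, had 206 CPM per kb, above every regulatory particle member. Psmb7 was the lowest ubiquitous core gene at 39.5 CPM per kb, and the 14 core genes other than Psma8 and Psmb11 spanned 10.2-fold. Regulatory particle members spanned 2.72-fold, with Psmd2 at 97.4 and Psmc6 at 35.9 CPM per kb. Of 31 neighbours in this order, 22 pairs overlapped over the 4 libraries. The order depends on the annotated length: with all annotated exons merged, Psmb2 ranked 1, Psma7 ranked 4 and Psmb7 ranked 31. Among the 32 members, a core gene held each of the 7 highest ranks on that scale.

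**Figure D5:**
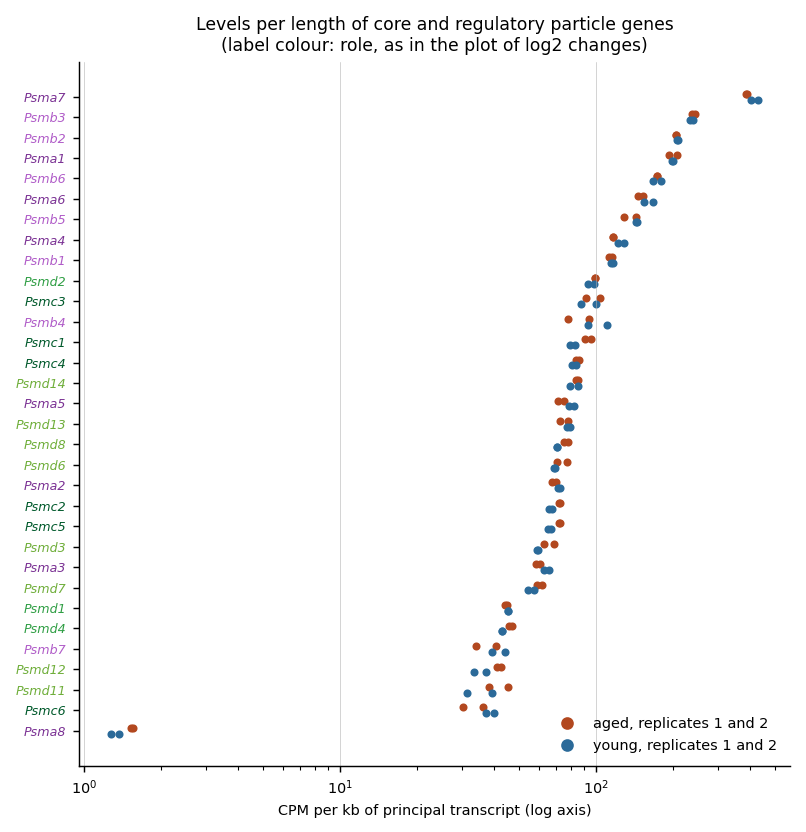
CPM per kilobase of the principal transcript (log axis) of 32 core and regulatory particle genes, ordered by their mean, with aged points above young points in each row. Core genes hold the top 9 places, Psma8 lies near 1 CPM per kb, and within a row the aged and young points lie close together compared with the spread between genes.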

How the data were processed

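Bulk RNA of sorted marrow monocytes was measured in 2 aged and 2 young libraries, grouped by the labels. The deposited files hold raw counts per gene symbol, which the authors had not normalized. Tools listed in the submitters' processing notes are STAR 2.5.3, cutadapt, DESeq2 and HTSeq, with the build mm10 and no roles; no source used here gives the annotation or the strand setting. Per the labels' protocols, libraries were oligo-dT selected and strand-specific.

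Genes were kept by filterByExpr (minimum count 10, minimum total 15), scaled with TMM factors and tested two-sided with edgeR 4.0.16 (quasi-likelihood F-test, R 4.3.3), adjusted by Benjamini-Hochberg over all 12035 genes. Log2 changes are aged over young, with a standard error equal to the size over the square root of F. Gene positions and lengths come from GENCODE M21 (GRCm38), which matched 30416 symbols, promoters from RefSeq. Members, lists and tests were chosen with earlier results of these data known. Genes were named by a rule: active subunits, members past the threshold, and the smallest p and highest level per length in each role; other members are given by role. Copies came from a transcript alignment. Ecpas was matched as AI314180, and Paaf1 was not analysed here. A result on 1 gene of the ubiquitin list is not reported here. Alternatives were other scalings and filters, DESeq2 1.42.0, limma-voom (limma 3.58.1), the replicate number as a block, offsets (splines with 5 degrees of freedom) and each library left out. The procedure was tested on simulated data. Floors (3 counts) cover counting error only.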

Additional observations from a re-analysis of the deposited data

How the results depend on the processing

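The core to regulatory difference kept its sign in every alternative run. Other library scalings shift both particles alike, so those alternatives could not test it. The difference of medians was -0.17 with offsets for GC content and length and -0.19 to -0.14 with each library left out; the log2 ratio of summed counts was -0.18 to -0.12 with each library left out. The core median was -0.094 with genes of at least 5 CPM alone, -0.11 with the offsets and -0.076 to -0.048 with each library left out, and the regulatory particle median was 0.057 with the offsets and 0.091 to 0.12 with each library left out. Counts of calls depended on the setting. With no low count filter, 1399 genes passed, 1 core member (Psmb4), 1 regulatory particle member (Psmd11), 4 other members and 4 ubiquitin genes. Same-numbered libraries shared a deviation from their group mean with a correlation of 0.094 across genes, and no label pairs them; with the replicate number as a block, 1817 genes passed, 1 core member (Psmb4, lower), 4 regulatory particle members (3 higher), 4 other members, 2 cofactors and 4 ubiquitin genes. With library size alone, 0 other members passed. With each library left out, 197 to 1040 genes, 0 core, 0 to 2 regulatory particle and 0 to 1 other members passed, 0 cofactors, and 1 to 3 ubiquitin genes; the lowest number of genes was without young replicate 1. The lone library of an arm was then assumed to vary like the others. Among the genes named by the rule, the signs that turned were those of Nfe2l1 (-0.010 with offsets, -0.014 without aged replicate 1, -0.0052 without young replicate 1, and up to 0.044 with the others left out), Psmb6 (-0.013 with offsets, -0.046 without young replicate 1, and up to 0.055 with the others left out), Psmb3 (-0.0031 with offsets), Psmc3 (-0.0050 with offsets, -0.031 without aged replicate 2 and -0.040 without young replicate 1, and up to 0.16 with the others left out), Psmd14 (-0.0032 without young replicate 1) and Psmd2 (-0.00038 with offsets). Of the other members, Psma1 reached -0.050, Psmd1 0.00020, Psmg1 -0.084, Psmg2 0.12 and Psmg3 -0.039, each with its sign turned in at least 1 alternative. With 2 libraries per group, a member that missed the threshold is not shown to be equal at both ages.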

Other observations

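Among the core and regulatory particle members, 5 had the widest ranges between libraries. The gap between the highest and lowest library was 36.8% of the mean for Psmd11, 34.3% for Psmb4, 27.1% for Psmc6, 25.1% for Psmb7 and 24.1% for Psmd12, against a median of 11.1% over 32 core and regulatory particle genes. Psmb4 and Psmb7 were lowest in aged replicate 1 (92.5 and 39.5 CPM) and highest in young replicate 1 (131 and 51.0 CPM). Psmd11 was highest in aged replicate 2 (129.6 CPM) and lowest in young replicate 1 (89.2 CPM). Psmc6 was lowest in aged replicate 2 (67.5 CPM) and highest in young replicate 1 (89.2 CPM). Among the remaining members, the range was 41.8% for Psmg4, 35.9% for Psmd9, 27.4% for Psmd5, 26.0% for Psme4 and 24.2% for Psmf1. These members were chosen after their values were seen.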
